A study of Mus musculus with 18 samples.

Results

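miR-143 and miR-145 are the microRNAs (miRNAs) best known from smooth muscle, and they were followed here through mouse sperm libraries of 3 generations. The members are the known mouse miRNAs whose identifier is miR-143, miR-145a or miR-145b, with any arm. Of 1739 known miRNAs listed in at least 1 of 16 libraries, 5 fit this rule: mmu-miR-143-3p, mmu-miR-143-5p, mmu-miR-145a-5p, mmu-miR-145a-3p and mmu-miR-145b, which is listed with no arm. The species prefix is left out below. The names 5p and 3p refer to the strands of the hairpin precursor from which each mature miRNA is cut.

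miR-143 and miR-145 are cut from a shared primary transcript that the serum response factor and its partner myocardin switch on in smooth muscle cells. Together they hold these cells in the contractile state, in part by repressing the transcription factors KLF4, KLF5 and ELK1. The coats of the epididymal duct and the vas deferens, through which sperm are stored and expelled, are built of smooth muscle, and fibroblasts of many tissues carry both miRNAs as well. The 3p arm of miR-143 and the 5p arm of miR-145a are the arms usually regarded as functional.

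All libraries came from sperm of ICR mice, an outbred strain. F0 NHS males were exposed to NH3 (ammonia) and H2S (hydrogen sulphide), both irritant gases, over 5 weeks that began at an age of 3 weeks, and then were mated with untreated females. F1 NHS males were their untreated sons and F2 NHS males their untreated grandsons. The Con males of F0, F1 and F2 are the control line of each generation, with 3 libraries in every group. The design text gives 8 weeks as the age at which F1 males were mated, without naming a line. Whether the libraries of a group came from different animals is not in the labels, and a p-value here therefore reflects only how far these libraries spread, which may be partly technical.

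Values are in TPM as the files give it, the reads of a miRNA over all reads of its library, with no correction for length. Library totals ranged from 17224451 to 29430555 reads, and known miRNAs took 3408722 to 13212381 of them in the 16 libraries whose lists hold this class. The lists of F1 NHS replicates 1 and 3 end before the known miRNAs, so replicate 2 alone stands for F1 NHS. The lists of F1 NHS replicate 2 and F2 NHS replicates 2 and 3 hold the known miRNAs but are also cut short. They list 42.3, 35.7 and 40.3% of the reads of these libraries. Where a list was cut short, the library total was worked out from counts and TPM. Known miRNAs made up 49.9% ± 8.56 of all reads in F0 Con (SD, n = 3), 43.6% ± 8.29 in F0 NHS, 21.1% ± 10.2 in F1 Con, 38.3% in the F1 NHS library, 27.4% ± 6.33 in F2 Con and 34.4% ± 3.89 in F2 NHS. In 6 of the 16 libraries a predicted miRNA with a tRNA-Ala-like sequence stood at 2378 to 18720 TPM, against 42.9 to 223.5 TPM in the other 10. These 6 libraries, F0 Con replicate 2, F0 NHS replicate 3, F1 NHS replicate 2, F2 Con replicates 1 and 2 and F2 NHS replicate 1, are called rich in tRNA-Ala reads below. In F1 the lone NHS library was rich and no Con library was. Exposure line and richness in tRNA-Ala reads therefore cannot be told apart in any F1 comparison of NHS with Con.

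In the genome build GRCm38.p6 (RefSeq), Mir143 lies on chromosome 18 from 61649196 to 61649258 and Mir145a from 61647825 to 61647894, both on the minus strand and 1301 bases apart. Mir145b lies on the same chromosome and strand from 69022199 to 69022273, outside this cluster.

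miR-143-3p was among the most abundant miRNAs of these sperm libraries. It ranked first among known miRNAs in 7 of 16 libraries and within the top 3 in 13, and its lowest rank was 5. Its level ran from 5683 to 154118 TPM, which rests on 133751 to 3262843 reads. Counting error is therefore small beside the spread between libraries. Intervals and limits for single libraries describe counting alone, because the reads need not be separate molecules.

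In F0 Con, miR-143-3p stood at 58146, 154118 and 60073 TPM in replicates 1, 2 and 3. In F0 NHS it stood at 76845, 45472 and 107154 TPM. The F0 groups overlapped, and F0 Con replicate 2 was the highest library of all. The 3 F1 Con libraries had 8873, 5683 and 12399 TPM, and the lone F1 NHS library had 30181 TPM. In F2 Con they were 27736, 11921 and 11520 TPM, and in F2 NHS 27279, 18039 and 31549 TPM. Every library of F0 was above every library of F1 and F2, whereas the Con and NHS libraries of F2 overlapped. Of all 735 miRNAs tested, 25.6% were lower in every F1 Con than in any F0 Con library, 21.1% in every F2 Con than in any F0 Con library and 10.6% in every F2 NHS than in any F0 NHS library.

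miR-145a, the cluster partner, was read at a far lower level, and from either arm of its hairpin. Its 5p arm was at 2468, 8669 and 1781 TPM in F0 Con and at 503.2, 1025 and 5015 TPM in F0 NHS. It was at 447.1, 40.3 and 473.3 TPM in F1 Con and at 749.5 TPM in the F1 NHS library. It was at 377.2, 405.7 and 141.9 TPM in F2 Con and at 1551, 358.4 and 398.0 TPM in F2 NHS. F0 Con lay above F1 Con and F2 Con without overlap, while F1 Con replicate 2 had the lowest value of the 16 libraries.

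The 3p arm of miR-145a was at 4177, 6705 and 801.6 TPM in F0 Con and at 2767, 653.8 and 6965 TPM in F0 NHS. It was at 357.6, 202.9 and 342.0 TPM in F1 Con and at 575.5 TPM in the F1 NHS library. It was at 1592, 273.0 and 442.8 TPM in F2 Con and at 452.9, 2695 and 2607 TPM in F2 NHS. F0 Con was above F1 Con in every library, but F2 Con replicate 1 reached into the F0 Con range and F2 NHS replicate 1 into the F2 Con range.

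The remaining members were rare. miR-143-5p, the passenger arm of miR-143, had 17, 179 and 57 reads in F0 Con, with 58, 61 and 74 in F0 NHS and 5, 16 and 5 in F1 Con, while the lone F1 NHS library had 2. This arm had 0 reads in all 3 F2 Con libraries, which allows up to 0.115 to 0.166 TPM by the limit of 3 reads, and 17, 347 and 21 reads in F2 NHS. miR-145b, annotated at a separate locus, had reads in 13 of 16 libraries, with a median of 5.5 reads and a maximum of 238 reads in F0 Con replicate 2. The 2 rare members were thus both higher in F0 Con replicate 2 than in the other F0 Con libraries.

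**Figure D1:**
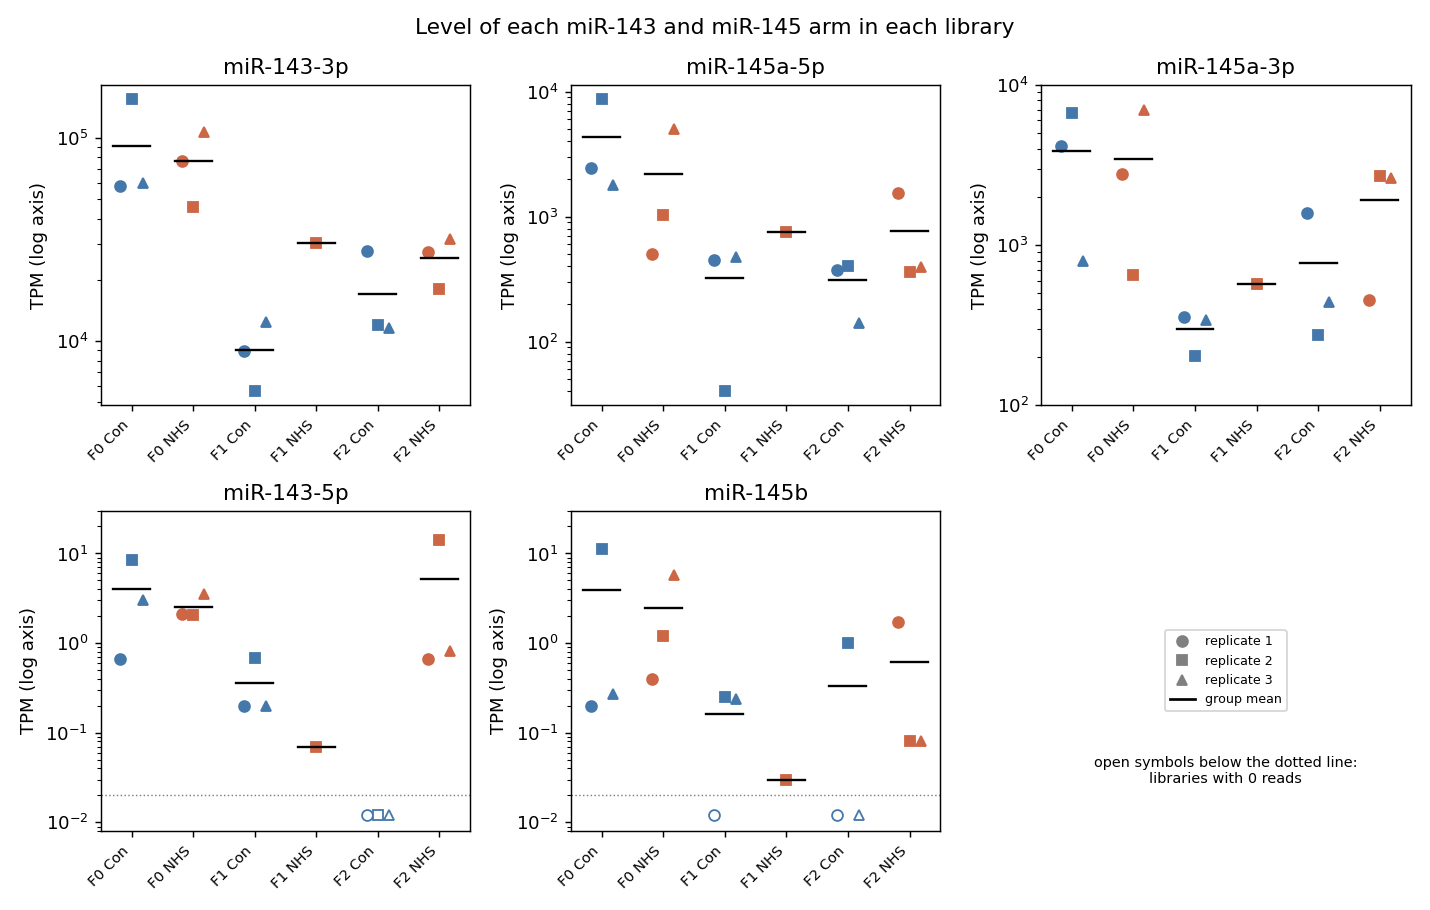
Level in TPM (log axis) of each member in each of the 16 libraries by group, with Con in blue, NHS in orange, a symbol per replicate, a black line for the group mean and open symbols for libraries with 0 reads. miR-143-3p lies between 45472 and 154118 TPM in the 6 F0 libraries and between 5683 and 31549 TPM in the F1 and F2 libraries.

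Ordered by mean level, miR-143-3p ran from F0 Con (90779 ± 54861 TPM, SD, n = 3) and F0 NHS (76490 ± 30842) to the F1 NHS library (30181), F2 NHS (25623 ± 6906), F2 Con (17059 ± 9249) and F1 Con (8985 ± 3359). Among neighbours in this order only F0 NHS and the F1 NHS library were separated by their ranges. The F0 Con mean was 10.1 times that of F1 Con and 5.32 times that of F2 Con, and the F0 NHS mean was 2.99 times that of F2 NHS. Without F0 Con replicate 2 the first 2 of these ratios were 6.58 and 3.47. As a share of miRNA reads, a scale on which the smaller miRNA class of F1 and F2 does not enter, they were 4.34 and 3.25, and 2.37 and 1.77 without that library. miR-145a, both arms summed, followed the order F0 Con (8200 ± 6536 TPM), F0 NHS (5643 ± 5545), F2 NHS (2687 ± 592), the F1 NHS library (1325), F2 Con (1077 ± 774) and F1 Con (621.1 ± 327.3). In that order F2 NHS and the F1 NHS library were the only neighbours whose values did not overlap. Both miRNAs had F0 Con at the top and F1 Con at the bottom.

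The share of known miRNA reads does not depend on reads outside the class. All members together took 12.5, 41.8 and 10.9% of miRNA reads in F0 Con replicates 1, 2 and 3 and 19.2, 13.0 and 22.6% in F0 NHS. They took 7.26, 3.43 and 4.06% in F1 Con, and the lone F1 NHS library had 8.22%. They took 9.20, 6.22 and 4.08% in F2 Con and 9.38, 6.36 and 8.93% in F2 NHS. As with TPM, each F0 library was above each F1 and F2 library.

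**Figure D2:**
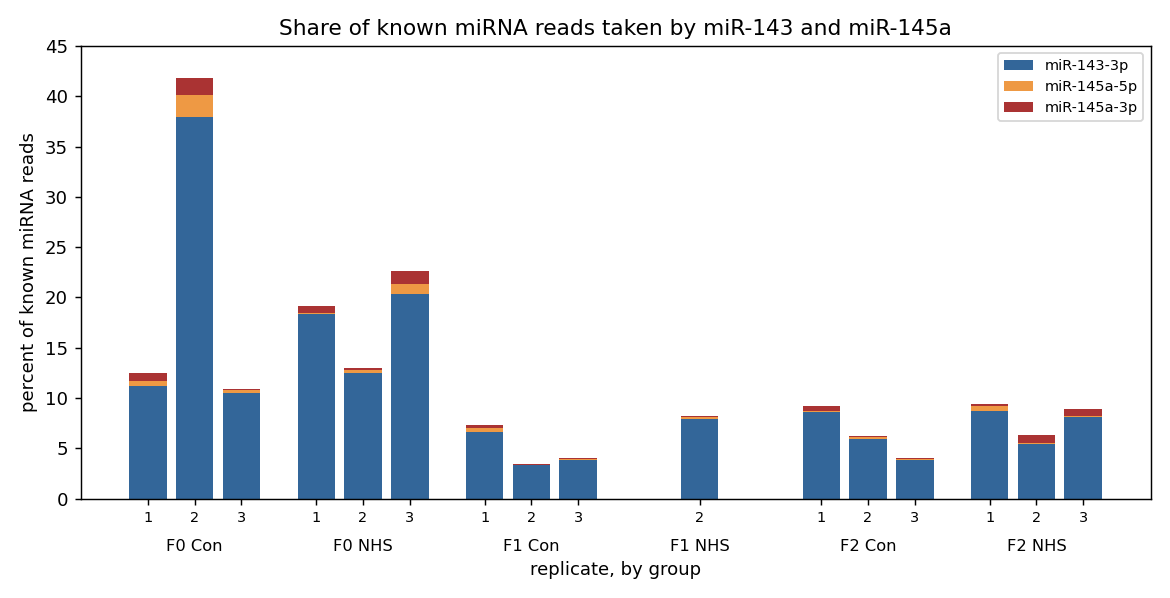
Percent of known miRNA reads taken by miR-143-3p, miR-145a-5p and miR-145a-3p, stacked, for each replicate of each group. The tallest bar is F0 Con replicate 2, where all members took 41.8%, and the bars of F1 and F2 reach 9.38% at most.

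The comparison of NHS with Con asks whether exposure of the F0 males left a mark on the sperm of the exposed males, their sons and their grandsons. Single arms were fitted first, in a table of 735 miRNAs, with edgeR's quasi-likelihood test and Benjamini-Hochberg adjustment, and the call threshold was an adjusted p of 0.05. miR-143-3p had log2 fold changes of -0.66 (SE 0.68), 1.09 (SE 0.90) and 0.40 (SE 0.68) in F0, F1 and F2. In the same order miR-145a-5p gave -1.62 (SE 1.11), 0.54 (SE 1.49) and 1.21 (SE 1.10), and miR-145a-3p gave -0.70 (SE 0.98), 0.23 (SE 1.36) and 1.04 (SE 0.99). None of these arms was called, and edgeR called 0%, 0 miRNAs, for NHS against Con in F0, F1 and F2. At an unadjusted p under 0.05 there were 45, 47 and 82, and DESeq2 called 1 (0.136%), 7 (0.952%) and 28 (3.81%).

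With both arms summed, in a fit of 506 precursors, miR-143 differed between NHS and Con by a log2 fold change of -0.47 in F0 (SE 0.58, 95% interval -1.72 to 0.78, edgeR adjusted p = 0.808). Its sign rested on F0 Con replicate 2, without which it was 0.44, and among the libraries not rich in tRNA-Ala reads it was 0.33. In F1 the log2 fold change was 1.26 (SE 0.77, interval -0.40 to 2.92, edgeR adjusted p = 0.654), with the lone NHS library assumed to vary like the other groups. In F2 it was 0.42 (SE 0.58, interval -0.83 to 1.67, edgeR adjusted p = 0.793). None of the 3 differences passed the threshold. The libraries of NHS and Con overlapped in TPM in F0 and F2. The lone F1 NHS library, at 30181 TPM, was above the F1 Con range of 5684 to 12399 TPM.

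miR-145a, both arms summed, gave log2 fold changes of -0.88 in F0 (SE 0.81), 0.56 in F1 (SE 1.11) and 1.12 in F2 (SE 0.82), with edgeR adjusted p of 0.737, 0.859 and 0.567. The F0 value was 0.28 without F0 Con replicate 2. The F2 interval ran from -0.64 to 2.88 and so includes no change as well as a large rise. In F2 the NHS libraries, at 2004, 3054 and 3005 TPM, were all above the Con libraries at 1969, 678.6 and 584.7 TPM, although F2 Con replicate 1 was close. Such separation upward occurred for 12.5% of the 506 precursors in this contrast, so it does not set miR-145a apart. As a share of miRNA reads miR-145a took 0.380% ± 0.210 in F2 Con, against 0.780% ± 0.139 in F2 NHS (SD, n = 3 each, two-sided exact permutation p = 0.1, the smallest that 3 against 3 libraries allow, and 0.75 adjusted over 15 share tests).

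Averaged over generations, the NHS effect was a log2 fold change of 0.40 for miR-143 (SE 0.38, edgeR adjusted p = 0.765) and 0.27 for miR-145a (SE 0.53, edgeR adjusted p = 0.878). The test of whether the NHS effect differed between generations gave an edgeR adjusted p of 0.539 for both. The average and this test include F1, where exposure line and richness in tRNA-Ala reads coincide, as does the pooled share below. In edgeR 0 of the 506 precursors, 0%, were called in each of these comparisons, with 41, 45 and 73 at an unadjusted p under 0.05 in F0, F1 and F2, whereas DESeq2 called 3 (0.593%), 3 (0.593%) and 34 (6.72%). All members together held 21.7% ± 17.4 of miRNA reads in F0 Con, against 18.2% ± 4.89 in F0 NHS (two-sided exact permutation p = 1). They took 6.50% ± 2.57 in F2 Con and 8.22% ± 1.63 in F2 NHS (two-sided exact permutation p = 0.4). Pooled over generations, the mean difference in share was 0.515 percentage points (exact permutation p = 0.929 over 1600 relabellings), and without F0 Con replicate 2 it was 3.86 points (exact permutation p = 0.0338 before adjustment).

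miR-143-5p, with 0 reads in every F2 Con library and reads in every F2 NHS library, had the lowest p of all miRNAs in the F2 comparison and still missed the threshold (edgeR adjusted p = 0.164). Its mean in F2 NHS was at least 38.0-fold higher than F2 Con, taken against a floor of 3 reads per library, and at least 5.43-fold higher without F2 NHS replicate 2. Upward separation of the groups was found for 11.7% of single miRNAs in this contrast. DESeq2 called miR-143-5p in F2 (adjusted p = 6.96e-05), and edgeR called it with no filter on low counts (adjusted p = 0.000182). The major arm, miR-143-3p, was read in the same F2 Con libraries at 11520 to 27736 TPM.

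**Figure D3:**
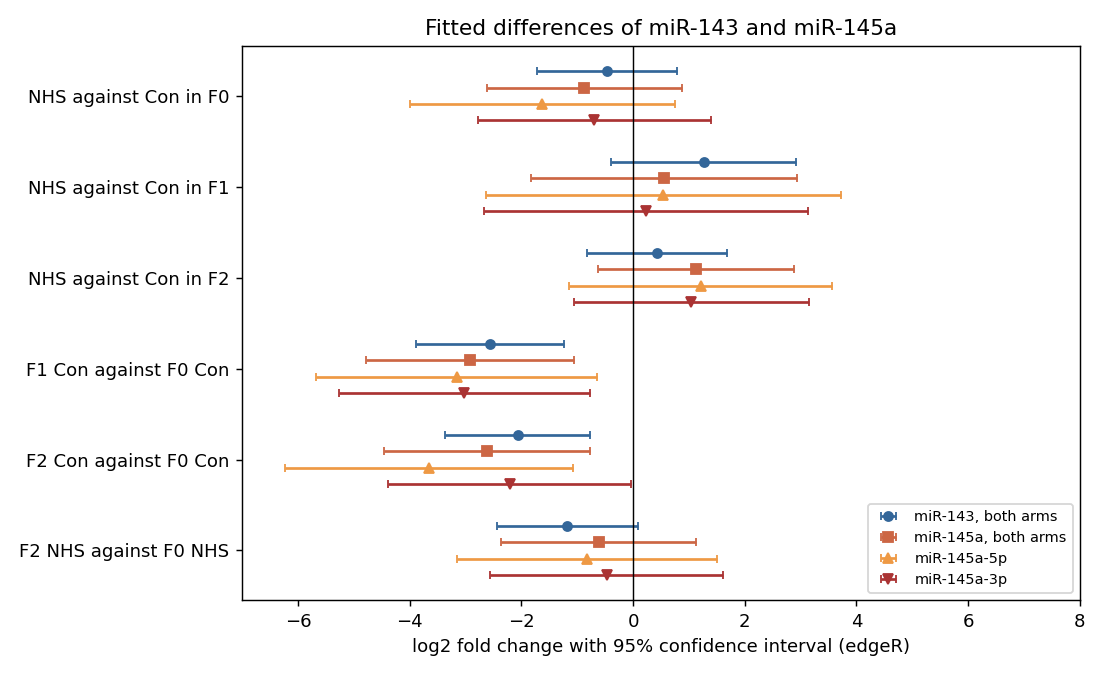
Log2 fold change with 95% confidence interval from edgeR for miR-143 and miR-145a with both arms summed and for each arm of miR-145a, in 6 comparisons. All intervals for NHS against Con include 0, and those of F1 Con and F2 Con against F0 Con lie below 0.

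The Con groups carry no exposure, and their differences give the background between generations. As single arms, all 5 members had negative log2 fold changes in F1 Con and F2 Con against F0 Con. None passed the threshold in edgeR as first fitted, with TMM. Over DESeq2 and the other edgeR settings, the lowest adjusted p in F1 Con was 0.00257 for miR-143-3p, 0.0341 for miR-145a-3p and 0.0423 for miR-145a-5p. In F2 Con it was 7.69e-05 for miR-143-5p, 0.0179 for miR-145a-5p and 0.0237 for miR-143-3p. miR-143-5p in F1 Con and miR-145a-3p in F2 Con passed under none of them. DESeq2 called 7.89% and 11.8% of all miRNAs in these contrasts. In the fit of 735 miRNAs, where edgeR called 0 from F0 Con to F1 Con and 2 (0.272%) from F0 Con to F2 Con, miR-143-3p gave -2.71 (SE 0.72, edgeR adjusted p = 0.124) and -2.25 (SE 0.71, edgeR adjusted p = 0.115). For miR-145a the 5p arm gave -3.16 and -3.66 and the 3p arm -3.03 and -2.21 for F1 Con and F2 Con, with edgeR adjusted p from 0.131 to 0.251. miR-145b gave -4.25 (SE 2.13) and -3.50 (SE 2.04), with intervals that include 0. miR-143-5p, absent from the reads of F2 Con, was at least 29.9-fold higher in F0 Con by the same floor (edgeR adjusted p = 0.0719).

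In the fit with summed arms, an alternative to that of single arms, miR-143 fell by 2.57 on the log2 scale from F0 Con to F1 Con (SE 0.62, edgeR adjusted p = 0.0386). It was 1 of 21 precursors called there, 4.15% of 506, and 1 of 12 that were lower (2.37%). Between F0 Con and F2 Con its log2 fold change was -2.07 (SE 0.61, edgeR adjusted p = 0.0543), in a contrast that called 3.16% of precursors. The test over all 3 Con groups called miR-143 (edgeR adjusted p = 0.0398), as it did 3.75% of precursors. In DESeq2 the adjusted p was 9.32e-04 for F1 Con and 0.00934 for F2 Con, in contrasts where it called 104 (20.6%) and 100 (19.8%) precursors. As first fitted in edgeR, single arms gave no such call, although the 3p arm holds nearly all miR-143 reads.

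miR-145a with both arms summed lay in the same direction without passing the threshold in edgeR with TMM over all 16 libraries. Its log2 fold change was -2.92 from F0 Con to F1 Con (SE 0.87, edgeR adjusted p = 0.0598) and -2.61 to F2 Con (SE 0.86, edgeR adjusted p = 0.0754). From F0 Con to F1 Con it was called by DESeq2 (adjusted p = 0.00409) and in edgeR with library totals in place of TMM (adjusted p = 0.0191) or without F0 NHS replicate 3 (adjusted p = 0.0409). Between F1 Con and F2 Con, miR-143 differed by 0.50 (SE 0.58) and miR-145a by 0.31 (SE 0.81), both within their error. In the exposed line, F2 NHS against F0 NHS gave -1.18 for miR-143 (SE 0.59, edgeR adjusted p = 0.433) and -0.62 for miR-145a (SE 0.81, edgeR adjusted p = 0.774). Whether the drop over generations differed between the Con and NHS lines is covered by the test between generations given above, which did not pass.

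The separation of libraries was common among miRNAs here. In TPM, miR-143 and miR-145a were both lower in every F1 Con library than in any F0 Con library, as were 33% of precursors, and the same held for F2 Con, as for 26.5% of precursors. As a share of miRNA reads, miR-143 stayed apart in both, at 10.5 to 38.0% in F0 Con, 3.29 to 6.66% in F1 Con and 3.88 to 8.59% in F2 Con, as did 8.89% and 11.1% of precursors. miR-145a overlapped on that scale, since F0 Con replicate 3 had 0.450%, below F1 Con replicate 1 at 0.604% and F2 Con replicate 1 at 0.610%. In TPM, miR-143 was also lower in every F2 NHS than in any F0 NHS library, as were 13.4% of precursors. Scaling to library totals in place of TMM moved the median log2 fold change of all precursors from F0 Con to F1 Con to -0.86, and scaling to the miRNA total moved it to 0.47. Relative to these medians, miR-143 stood at -2.48 and -2.59. A change of scaling moves all miRNAs by nearly the same amount, so this distance could hardly change and is no test of the difference.

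The call on miR-143 between F0 Con and F1 Con rests on few libraries. Without F0 Con replicate 2 its log2 fold change was -1.66 (edgeR adjusted p = 0.133), and the call also ended without F0 Con replicate 3, without F0 NHS replicate 1 and without any 1 F1 Con library. Among the libraries that were not rich in tRNA-Ala reads, miR-143 stood at 58147 and 60076 TPM in F0 Con, at 5684 to 12399 TPM in F1 Con and at 11520 TPM in the single F2 Con library, and the log2 fold change of F1 Con was -1.64 (edgeR adjusted p = 0.130). No F1 Con library was rich in tRNA-Ala reads, so a within-set value exists for the other libraries only.

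The shares of miRNAs known from other cell types also differed between these groups. The list for meiotic and haploid germ cells (miR-34b, miR-34c and the miR-449 family) took 0.990 to 1.37% of miRNA reads in F0 Con, 6.28 to 10.4% in F1 Con and 5.77 to 10.9% in F2 Con, opposite in direction to miR-143. Of its 9 listed miRNAs, 7 had reads in all 16 libraries, among them both arms of miR-34b and miR-34c, and miR-449b, read in 6 libraries, was the least detected. Over the 16 libraries the 3p arms of miR-34b and miR-34c averaged 7248 and 4422 TPM, and their 5p arms 74.8 and 82.0 TPM. Fewer cells of a type and less RNA per cell cannot be told apart in such bulk libraries. The part of these shares in the miR-143 difference was not tested.

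Of 6 tested miRNAs of the germ cell list, 5 had a positive log2 fold change from F0 Con to F1 Con, with a median of 2.33 against -0.05 over all 735 miRNAs. miR-34b-3p gave 2.48 (SE 0.67, edgeR adjusted p = 0.124) and miR-34c-3p 2.18 (SE 0.61, edgeR adjusted p = 0.124). edgeR called 0 of the 6, with 3 at an unadjusted p under 0.05, and DESeq2 called 2, in a contrast where it called 7.89% of all miRNAs. In F2, miR-145a was higher in all NHS libraries. There the germ cell list took 8.02% ± 2.65 in Con and 3.02% ± 0.328 in NHS (SD, n = 3 each). This lower share did not extend to most of its miRNAs, since 4 of the 6 tested had a positive log2 fold change. Their median was 0.33, against 0.15 over all miRNAs, and edgeR and DESeq2 called 0 of the 6. Mean levels were lower with NHS for the abundant miR-34b-3p (5197 against 13517 TPM) and miR-34c-3p (3762 against 6572 TPM). The part of this list in the F2 difference of miR-145a was not tested.

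Other miRNAs known from smooth muscle cells, contractile or proliferating, were summed from a list of 25 (miR-1a, miR-133a, miR-133b, miR-21a, miR-221, miR-222, miR-26a, miR-24, miR-31, miR-146a and miR-10a, all arms). They took 10.6% ± 2.81 of miRNA reads in F0 Con, 10.03% ± 0.0287 in F0 NHS, 8.23% ± 1.59 in F1 Con, 10.4% ± 3.87 in F2 Con and 13.6% ± 3.08 in F2 NHS (SD, n = 3 each). The F0 Con share of 7.48 to 13.0% overlapped that of F1 Con at 6.53 to 9.68% and F2 Con at 7.15 to 14.7%. The summed share of the members, which miR-143 carries, did not overlap between F0 Con and either of these groups. Over the 16 libraries, the largest means in the list were 9029 TPM for miR-26a-5p, 6131 for miR-21a-5p and 5306 for miR-26a-1-3p. By comparison, miR-133a-3p averaged 313.7 TPM and miR-133b-3p 11.7 TPM. The summed share therefore mainly follows the abundant miRNAs and cannot show whether smooth muscle content changed. Whether this list has a part in the miR-143 difference was not tested.

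From F0 Con to F1 Con, 17 of the 21 tested miRNAs of the smooth muscle list had a negative log2 fold change, with a median of -0.90, against 378 of all 735 miRNAs and a median of -0.05. edgeR called 0 of them, with 4 at an unadjusted p under 0.05, and DESeq2 called 1. Over all 735 miRNAs 135 were at an unadjusted p under 0.05 and DESeq2 called 7.89%. The most abundant, miR-26a-5p, gave -0.90 (SE 1.24), and miR-21a-5p, which rises in proliferating smooth muscle, gave -2.43 (SE 1.12, edgeR adjusted p = 0.268). miR-21a-5p was at 11326 ± 12620 TPM in F0 Con and 955.4 ± 923.0 TPM in F1 Con, with a spread in F0 Con larger than its mean.

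Stromal and fibroblast miRNAs (miR-199a, miR-199b, miR-214, miR-125b, miR-100 and miR-99a) took 7.21% ± 1.49 of miRNA reads in F0 Con, 4.39% ± 0.768 in F1 Con and 6.97% ± 0.577 in F2 Con. Of 13 tested, 11 had a negative log2 fold change from F0 Con to F1 Con, with a median of -1.07. To F2 Con 9 of 13 did, with a median of -0.25 against -0.21 for all miRNAs. edgeR called 0 in either, with 4 and 1 at an unadjusted p under 0.05, and DESeq2 called 3 and 0, against 7.89% and 11.8% of all miRNAs. The stromal share thus lay near its F0 Con value in F2 Con, where miR-143 did not.

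Epithelial miRNAs of the miR-200 family with miR-205 took 4.03 to 5.56% in F0 Con, 3.14 to 6.13% in F1 Con and 2.86 to 3.08% in F2 Con. As for miR-143, every F2 Con library was below every F0 Con library. Of 11 tested, 9 had a negative log2 fold change from F0 Con to F1 Con and 10 from F0 Con to F2 Con. The medians were -1.20 and -1.46, against -0.05 and -0.21 over all miRNAs. edgeR called 0 in either, with 3 at an unadjusted p under 0.05 in each, and DESeq2 called 2 in each. Over all 735 miRNAs 135 and 140 were at an unadjusted p under 0.05, and DESeq2 called 7.89% and 11.8%. In F2 NHS the epithelial miRNAs took 4.85 to 6.46%, above every F2 Con library, as miR-145a was. All 11 tested epithelial miRNAs had a positive log2 fold change in F2 NHS against F2 Con, with a median of 1.20 against 0.15 for all miRNAs. edgeR called 0 of the 11, with 4 at an unadjusted p under 0.05, and DESeq2 called 2, against 82 and 28 (3.81%) of all 735. The part of the epithelial list in the miR-143 and miR-145a differences was not tested.

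Red blood cell miRNAs (miR-451a, miR-144, miR-486a and miR-486b) took 2.55 to 13.6% in F0 Con, with the lowest value in F0 Con replicate 2, where miR-143 was highest. They took 9.60 to 12.9% in F1 Con and 2.17 to 3.97% in F2 Con, so they did not follow miR-143 from F0 to F1. miR-451a carried most of the share, at a mean of 26787 TPM, against 179.5 TPM for miR-486b-3p, the next. From F0 Con to F1 Con 6 of the 7 had a positive log2 fold change, with a median of 1.09 against -0.05 for all miRNAs. To F2 Con all 7 had a negative one, with a median of -2.12 against -0.21. edgeR called 0 in either, with 0 and 4 at an unadjusted p under 0.05, and DESeq2 called 0 and 3. Over all 735 miRNAs 135 and 140 were under 0.05, and DESeq2 called 7.89% and 11.8%.

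Striated muscle miRNAs, which share miR-1a, miR-133a and miR-133b with the smooth muscle list, took 0.0995 to 0.315% in F0 Con, 0.0741 to 0.106% in F1 Con and 0.0445 to 0.0868% in F2 Con. The F2 Con libraries were all below those of F0 Con, as for miR-143. Of 6 tested, 5 had a negative log2 fold change from F0 Con to F1 Con and 5 from F0 Con to F2 Con, with medians of -2.27 and -2.85. edgeR called 0 of the 6 in either, with 3 and 4 at an unadjusted p under 0.05, and DESeq2 called 1 and 3. Over all 735 miRNAs the medians were -0.05 and -0.21, with 135 and 140 at an unadjusted p under 0.05, and DESeq2 called 7.89% and 11.8%. Against F0 Con, miR-133b-3p gave -3.43 (SE 0.96, edgeR adjusted p = 0.101) and miR-206-3p -5.02 (SE 1.46, edgeR adjusted p = 0.109) in F2 Con. miR-206-5p and miR-133b-5p of this list were read in 1 library each, and these miRNAs were chosen for mention after their values were seen.

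The X-linked testis cluster had a higher share in every F1 Con and F2 Con library than in any F0 Con library, at 0.650 to 2.13% in F0 Con, 4.18 to 5.58% in F1 Con and 4.52 to 5.197% in F2 Con. Of its 31 tested miRNAs, 26 had a positive log2 fold change from F0 Con to F1 Con and 22 from F0 Con to F2 Con. The medians were 0.77 and 0.84, against -0.05 and -0.21 over all miRNAs. edgeR called 0 in either, with 7 and 6 at an unadjusted p under 0.05, and DESeq2 called 5 and 6. Over all 735 miRNAs 135 and 140 were at an unadjusted p under 0.05, and DESeq2 called 7.89% and 11.8%. Leukocyte miRNAs took 0.117 to 0.356% in F0 Con, 0.174 to 1.5% in F1 Con and 0.445 to 0.956% in F2 Con, so F2 Con was above F0 Con in every library. Endothelial miRNAs took 0.369 to 1.04% in F0 Con, 0.0941 to 0.570% in F1 Con and 0.579 to 0.761% in F2 Con. All 4 had a negative log2 fold change from F0 Con to F1 Con and to F2 Con, with medians of -2.51 and -1.76. In both contrasts 0 of the 4 were at an unadjusted p under 0.05, and edgeR and DESeq2 called 0. The liver miRNA miR-122 took at most 0.0953% in these groups. The part of these lists in the miR-143 difference was not tested.

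**Figure D4:**
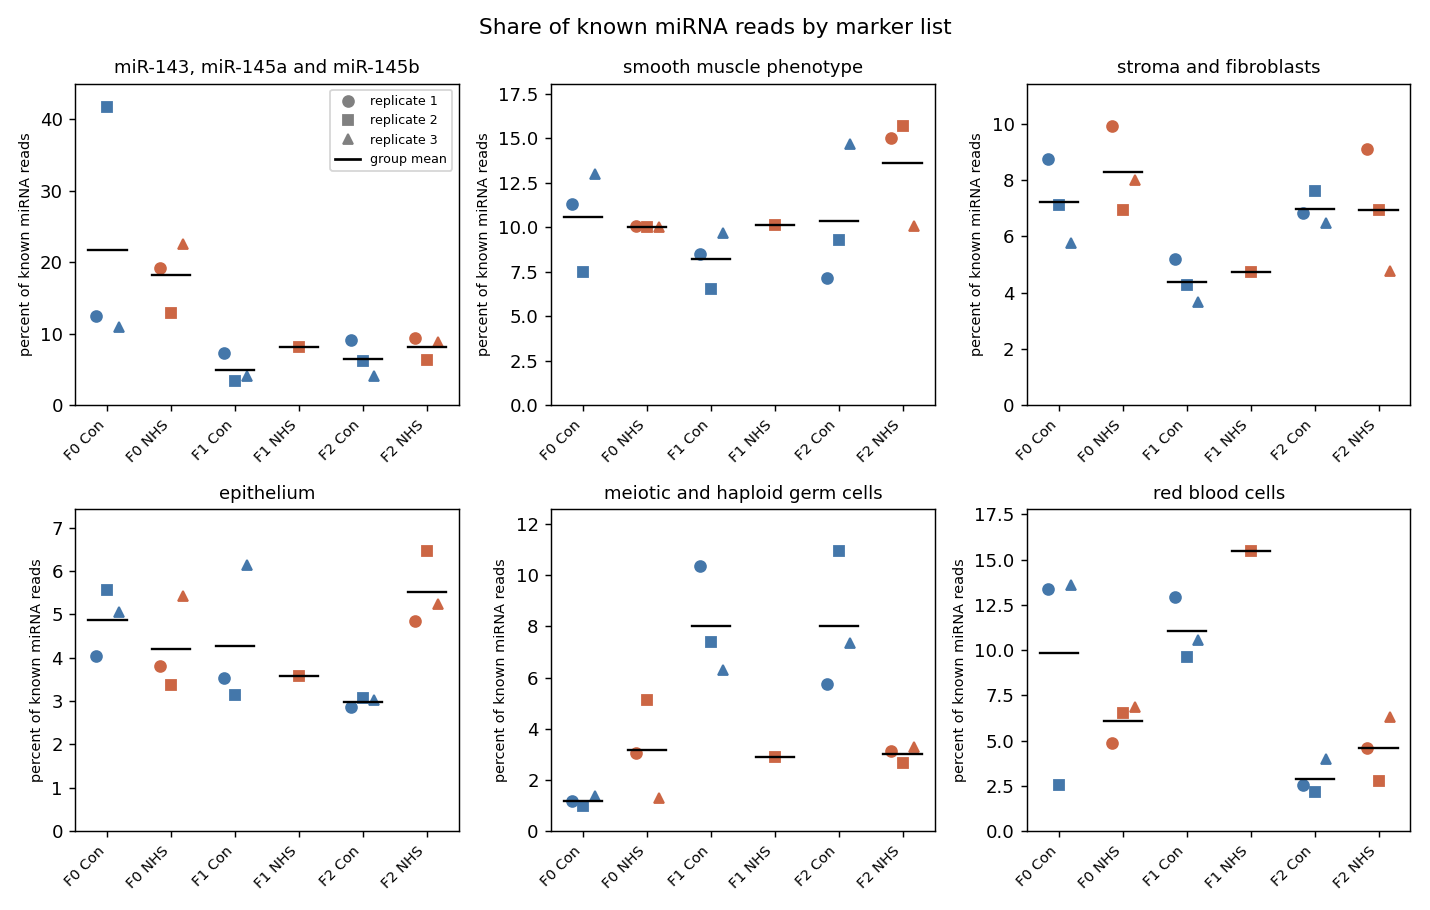
Percent of known miRNA reads taken by the members and by 5 marker lists in each library by group, with Con in blue, NHS in orange, a symbol per replicate and a line for the group mean. The members are highest in F0, and the germ cell list is lowest in F0 Con at 0.990 to 1.37%.

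Which arm of miR-145a was read varied from library to library. The 5p arm made up 37.1, 56.4 and 69.0% of miR-145a reads in F0 Con, against 15.4, 61.1 and 41.9% in F0 NHS. It made up 55.6, 16.6 and 58.1% in F1 Con, and the lone F1 NHS library had 56.6%. In F2 Con it made up 19.2, 59.8 and 24.3% and in F2 NHS 77.4, 11.7 and 13.2%. The lowest and the highest share of all libraries were both in F2 NHS, so the spread lay within groups.

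The difference between NHS and Con in the miR-145a 5p share lay within this spread. The means were 54.2% and 39.4% in F0 Con and NHS (two-sided exact permutation p = 0.5) and 34.4% and 34.1% in F2 Con and NHS (two-sided exact permutation p = 1). Each share rests on at least 5724 reads, and for F0 Con replicate 1 the Wilson 95% interval was 36.9 to 37.4%. The range of 65.7 points over libraries was near the median of 66.7 points among 98 precursors with at least 1000 reads in every library, of which 58 ranged over more than 50 points. miR-145a was thus 51st of the 98 by range, and miR-143, whose 5p arm never exceeded 0.0773%, was 95th.

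The sum of both miR-145a arms followed miR-143 more closely than either arm alone. Over the 16 libraries the Spearman correlation of miR-143-3p was 0.874 with the sum, 0.862 with miR-145a-3p and 0.788 with miR-145a-5p, and it was 0.559 between the 2 arms of miR-145a. TPM divides out library depth, but both miRNAs of a pair share the size of the miRNA class, 13.3 to 57.4% of reads, and the difference between generations. The values are descriptions. The ratio of miR-143 to miR-145a reads ran from 5.91 in F2 NHS replicate 2 to 27.1 in F0 NHS replicate 2. It was 14.0 ± 8.04 in F0 Con, 19.8 ± 9.61 in F0 NHS, 16.5 ± 6.28 in F1 Con, 17.1 ± 2.83 in F2 Con and 10.01 ± 3.87 in F2 NHS (SD, n = 3 each). The F2 groups did not overlap in this ratio, at 14.1 to 19.7 in Con and 5.91 to 13.6 in NHS, a difference that was not tested.

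**Figure D5:**
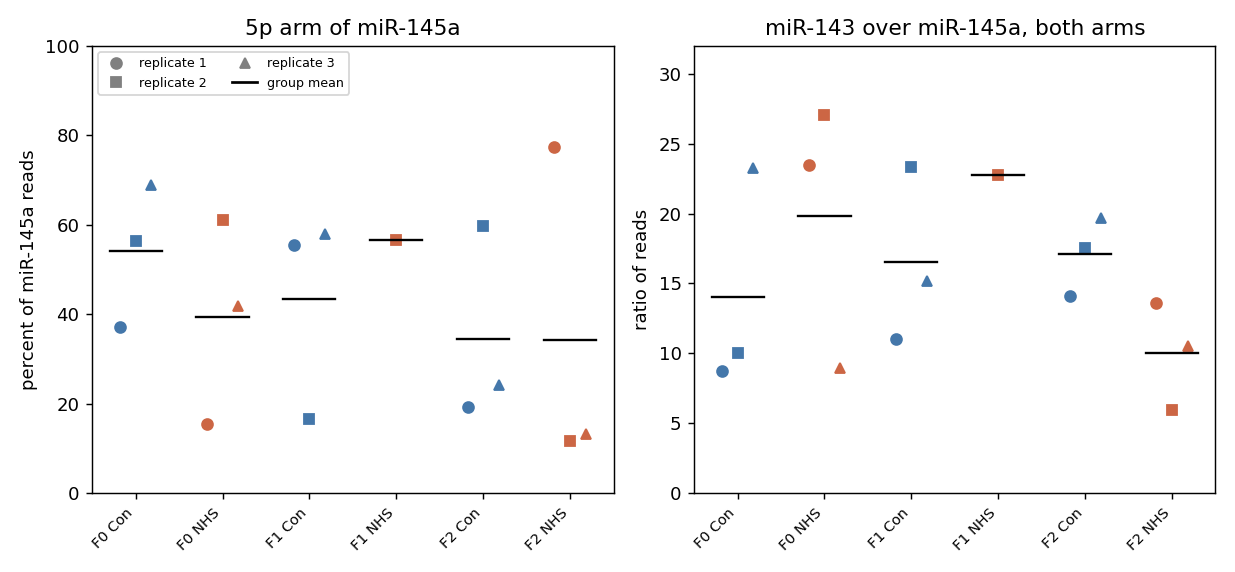
Left, percent of miR-145a reads from the 5p arm, and right, ratio of miR-143 to miR-145a reads, in each library by group, with Con in blue, NHS in orange, a symbol per replicate and a line for the group mean. The 5p share ranges from 11.7% to 77.4%, both within F2 NHS.

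Among 420 known miRNAs with a mean of at least 10 TPM, the 5 whose level followed miR-143-3p most closely over the 16 libraries were miR-29c-5p (Spearman rho 0.918), miR-210-3p (0.894), miR-376a-3p (0.891), miR-145a-3p (0.862) and miR-200b-3p (0.859). For miR-145a-5p the closest were miR-143-3p (0.788), miR-101b-3p (0.753), miR-210-3p (0.753), miR-341-3p (0.738) and miR-31-3p (0.732). The cluster partner was thus the first of 420 for miR-145a-5p, and its 3p arm the fourth for miR-143-3p. In each library all these miRNAs share the size of the miRNA class and the generation.

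The mature sequences of the 4 miRNAs other than miR-145a-3p that followed miR-143-3p most closely are shown to let their seeds be compared (RefSeq, GRCm38.p6, 5′ to 3′, with bases 2 to 8, the seed that pairs with targets, in capitals).
miR-29c-5p: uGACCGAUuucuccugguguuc
miR-210-3p: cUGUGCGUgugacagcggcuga
miR-376a-3p: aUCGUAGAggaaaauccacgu
miR-200b-3p: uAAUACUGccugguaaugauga

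Each of these 4 has a seed of its own, and so has every one of the 7 miRNAs with a listed sequence that were closest to either member, so they were not grouped by a shared seed. The genes of the 4 shown lie on separate chromosomes. Mir29c is on chromosome 1 (the mature arm at 195037562 to 195037583, plus strand) and Mir210 on 7 (141221407 to 141221428, minus). Mir376a is on 12 (109723824 to 109723844, plus) and Mir200b on 4 (156055685 to 156055706, minus). Among the miRNAs closest to miR-145a-5p, Mir341 lies on 12 as well (109611556 to 109611576, plus) and Mir31 on 4 (88910577 to 88910599, minus).

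miR-210-3p, a miRNA induced by hypoxia, was at 73.8 ± 15.2 TPM in F0 Con, 41.7 ± 25.8 in F0 NHS, 12.4 ± 5.85 in F1 Con, 12.7 ± 0.519 in F2 Con and 22.6 ± 4.89 in F2 NHS (SD, n = 3 each). The F1 NHS library had 22.2 TPM of it. miR-200b-3p, an epithelial miRNA, was at 2977 ± 908 TPM in F0 Con, 2312 ± 1249 in F0 NHS, 396.3 ± 177.2 in F1 Con, 1590 in the F1 NHS library, 385.7 ± 74.7 in F2 Con and 1889 ± 943 in F2 NHS. In F2 both were above every Con library in every NHS library, unlike miR-143-3p, whose F2 groups overlapped. Such separation upward was found for 11.7% of the 735 single miRNAs, so it does not set miR-210-3p or miR-200b-3p apart. Both stood highest in F0 Con, a pattern shared with miR-143-3p that follows from their choice by likeness over the same libraries.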

How the data were processed

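The authors deposited, per the file headers, a whole-number count and a TPM value for each small RNA of 18 sperm libraries. In the deposited values the TPM is the count over the library total, with no length term. The submitters' processing notes name mm10, and the sources used here name no aligner, counter or filter. The tables of predicted miRNAs and piRNAs were not used here.

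Counts of known miRNAs of 16 libraries were fitted in 1 model of 6 group means with edgeR 4.0.16 (TMM, quasi-likelihood test, two-sided) under R 4.3.3, with the miRNA class as library size. miRNAs with at least 1 CPM of all reads in at least 3 libraries were kept (735). A second fit summed the arms of each precursor (506). The Benjamini-Hochberg threshold was 0.05. Tests on simulated counts for the F2 comparison of 735 miRNAs recovered 9.18% of planted log2 changes of 2 and 67.7% of changes of 4. Shares were tested by exact permutation of libraries (scipy 1.17.1). DESeq2 1.42.0, other scalings, no filter, a replicate block, a term for libraries rich in tRNA-Ala reads (over 1000 TPM) and leaving out each library were tried. The fit on the libraries not rich in such reads, the other settings of the summed fit and the contrast of F2 NHS with F0 NHS were added after seeing the data.

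The members and lists were chosen with earlier results of these data known. Every member was named, with the 5 miRNAs closest to miR-143-3p and to miR-145a-5p by Spearman correlation of TPM among those with a mean of at least 10 TPM, and the leading miRNAs of lists. In the summed fit, a precursor is the miRNA name without its arm. The same replicate number did not pair libraries: correlations of same-numbered deviations ran from -0.221 to 0.130 in F0 and from -0.00937 to 0.160 in F2. The 15 pairs of replicates within groups had Spearman correlations of 0.825 to 0.908, and 0 pairs were identical.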

Additional observations from a re-analysis of the deposited data

How the results depend on the processing

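Of 931 log2 fold changes of members recomputed under an alternative, 873 kept their direction and side of the threshold, 29 changed sign, 10 lost the call and 19 gained one. Numbers of miRNAs called moved with the tool: DESeq2 called 1 in F0, 7 in F1, 28 in F2 and 12 for the mean NHS effect, against 0 in edgeR. With no filter edgeR called 3 in F2, 3 for the difference between generations and 45 among the Con groups. A term for the library set gave 1 in F0, 1 in F1, 1 for the mean, 1 for the difference between generations and 1 among the Con groups. Among the Con groups, summed arms gave 19 and library totals 23, and leaving out 1 library gave 0 to 4. With the replicate block 0 were called in every NHS comparison, and the miR-143 call between F0 Con and F1 Con was lost (adjusted p = 0.0563). That call was also lost with no filter (0.0790) and with the library set term (0.0518), and over the alternatives without 1 library its adjusted p ran from 0.0347 to 0.133. It held with DESeq2 and each other scaling.

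In the libraries not rich in tRNA-Ala reads the F0 log2 fold change of NHS reversed for miR-143-3p (0.22), miR-143-5p (0.36) and miR-143 summed (0.33). There F2 Con against F1 Con reversed for miR-143 (-0.32) and miR-145a (-0.81), and F2 NHS against F0 NHS for miR-145a (0.38). The library set term reversed miR-145a-5p in F1 (-1.71) and in the mean (-0.51), miR-145a-3p in F1 (-0.80), miR-145a summed in F1 (-0.83), and F2 Con against F1 Con for miR-143 (-0.17) and miR-145a (-0.72). The miRNA total in place of TMM reversed miR-145a-3p in F1 (-0.12). None of these values was called, and the cause was not tested.

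Leaving out 1 library moved the F0 log2 fold change from -0.91 to 0.44 for miR-143 summed, -0.99 to 0.35 for miR-143-3p, -1.47 to 0.53 for miR-143-5p, -1.87 to 0.28 for miR-145a summed and -1.39 to 0.28 for miR-145a-3p. The positive values came without F0 Con replicate 2. It moved miR-145a-5p in F2 from -0.10 to 1.61, and the mean NHS effect from -0.087 to 0.65 for miR-145a summed, -0.045 to 0.55 for its 3p arm and -0.39 to 0.54 for its 5p arm. For miR-145a, F2 Con against F1 Con ran from -0.40 to 1.07 and F2 NHS against F0 NHS from -0.99 to 0.18.

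The difference in share of miRNA reads, in percentage points, ran from -8.89 to 6.54 in F0 and -1.29 to 3.86 pooled for all members, -7.53 to 6.23 and -0.97 to 3.62 for miR-143, and -1.36 to 0.307 and -0.317 to 0.240 for miR-145a. That of the miR-145a 5p share ran from -21.9 to 12.4 in F2 and -7.82 to 3.62 pooled. For all members in F2 it ran from 0.519 to 3.08. Depth limits miR-143-5p and miR-145b, whose median counts were 17 and 5.5 reads. No value of NHS against Con in F1 could be had without F1 NHS replicate 2, the lone library of its group.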
